A study of Mus musculus with 4 samples.

Results

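The nuclear pore genes were examined in leukaemia cells sorted from mouse bone marrow. Members were the genes whose symbol in the probe annotation is Nup followed by a digit, or is Seh1l, Tpr, Ranbp2, Sec13, Rae1, Aaas, Ndc1, Pom121 or Ahctf1, and each gene was read from the probe set that was brightest on average over the arrays. This gave 27 of the 18193 genes of the array, with 71 probe sets between them. The annotation listed 8 of the 9 singly named symbols, and Tpr was not analysed here. Of the 27 genes, 26 lay above the detection floor on all 4 arrays. The other, Nup210l, a relative of the membrane nucleoporin Nup210, lay below it on all 4 and entered no comparison. The rule itself uses symbols only, and it was drawn up with earlier results of these data known.

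Nuclear pores are the channels through which proteins and RNA pass between nucleus and cytoplasm. Each pore is built from repeated subcomplexes. Outer rings of the Y-shaped complex and an inner ring form the scaffold, and membrane proteins anchor it in the nuclear envelope. Proteins rich in phenylalanine-glycine (FG) repeats fill the channel, filaments reach into the cytoplasm, and a basket hangs into the nucleus. Pores are disassembled and rebuilt at each mouse cell division and further ones are added in interphase. In human acute myeloid leukaemia, NUP98 and NUP214 are known as partners in fusion genes, among them NUP98-HOXA9.

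The leukaemia was a model of acute myeloid leukaemia made by introducing HoxA9 and Meis1 into bone marrow cells of a mouse carrying NS-GFP, a transgene in which a part of the nucleostemin (NS) promoter drives green fluorescent protein. The mice had a C57BL/6 background. All 4 groups share the leukaemia and the reporter, and differ in the sort by surface c-Kit, the receptor for stem cell factor, and by GFP level. The c-Kit- cells were split into NS-GFP low and middle gates and the c-Kit+ cells into NS-GFP middle and high gates. Since low GFP was sorted only from c-Kit- cells and high GFP only from c-Kit+ cells, these fractions are called the low gate and the high gate (c-Kit- low and c-Kit+ high in the plots), and values listed as 4 numbers run from the low gate over the c-Kit- and then the c-Kit+ middle gate to the high gate. Each fraction was hybridised to 1 Affymetrix array without replicates, so no test across samples, p-value or error between sorts can be given, and the number of mice behind an array and their ages are not given in the sources used here. Samples of normal marrow were not analysed here.

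Signals below are on the linear scale after quantile normalization, and ratios are log2 of those signals with values under the floor of 15.3 set to it. A difference is counted at 2-fold or more. The only repeat measurement is a further probe set of a gene, whose spread says nothing of how 2 sorts would differ. Over all genes with such a pair above the floor, the SD of 1 probe set's log2 ratio was 0.48 between the ends of the sort, 0.37 between both c-Kit- gates, 0.37 between both middle gates and 0.30 between both c-Kit+ gates. Kit followed the gates, at 26.4 or below in the c-Kit- fractions and at 479 or above in the c-Kit+ fractions. Gnl3, which encodes nucleostemin, had 183, 584, 1109 and 1299, and so differed between the middle gates as well. The low gate's array stood apart from the others in the lists of MHC class II and lymphocyte markers. MHC class II genes had a summed signal of 3206 there against 161 to 496 in the other fractions (5 genes on the array, all above the floor at the low gate and 2 to 4 elsewhere). B and plasma cell genes had 867 there against 145 to 236 elsewhere (6 genes), and T and NK cell genes 380 against 41.8 to 93.8 (8 genes). Of these lymphocyte genes, Cd3d, Cd3e, Cd3g, Cd4, Cd79a and Ms4a1 were below the floor on every array. Cd79b was above it on all 4 (161.5, 163, 143 and 98.9), Cd22 was at 131 and Cd2 at 68.2 at the low gate, and Cd8a was above the floor at both ends (21.6 and 29.9). Most of the B and plasma cell sum at the low gate came from Jchain (538), and most of the T and NK cell sum from Ccl5 (219). Nkg7 had 36.7, 7.38, 26.45 and 42.3, and so was highest at the high gate. Erythroid genes (6 on the array) had summed signals of 388, 381, 725 and 850 along the sort, most of it from the transferrin receptor Tfrc (273, 327, 687 and 809). The other 5 summed to 115, 54.1, 38.3 and 41.2, and Alas2 was above the floor only at the low gate. The list of sort and myeloid genes (8 on the array, with Kit and Gnl3) had summed signals of 8484, 6634.5, 15768 and 15121. Mpo (193, 763, 7087 and 7309) and Elane (128, 654, 3160 and 3187) were higher in the c-Kit+ fractions. Itgam (120, 64.2, 13.4 and 16.8), Hoxa9 (1882, 786, 673 and 510) and Ptprc (5584, 3297, 2104 and 1665) were highest at the low gate. Cd34 had 389, 459, 931 and 656. RNA integrity was read from control probe sets, whose 3' over 5' ratio for Actb was 2.50, 3.28, 3.98 and 4.70, and for Gapdh 3.37, 3.91, 3.10 and 3.41.

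The ends of the sort, which differ in both c-Kit and NS-GFP, gave the widest differences. Of the 26 measured pore genes, 12 were at least 2-fold higher at the high gate than at the low gate and none was 2-fold lower. Over all 11280 genes measured in that comparison, 16.1% were at least 2-fold higher and 13.7% at least 2-fold lower. The median log2 ratio of the pore genes was 0.96, against 0.09 for all genes, and 25 of the 26 ratios were above 0, as were 54.7% over all genes. At 1.5-fold, 21 were higher and 0 lower, against 28.9% and 22.8% of all genes. The furthest apart were Nup43, Ndc1, Nup85, Nup54 and Nup37, at 4.87-fold to 7.38-fold, while Nup214, Nup210, Nup98, Ranbp2 and Nup88 lay between 1.25-fold lower and 1.37-fold higher. By subcomplex, the median was 1.65 in the outer ring, 1.16 in the inner ring, 0.89 in the basket, 0.66 in the membrane ring, 0.60 in the channel and 0.45 on the cytoplasmic face. Under the authors' own scaling the median of all genes was -0.05 and that of the pore genes 0.88. Fewer cells of a type and less RNA per cell cannot be told apart in such bulk samples.

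**Figure D1:**
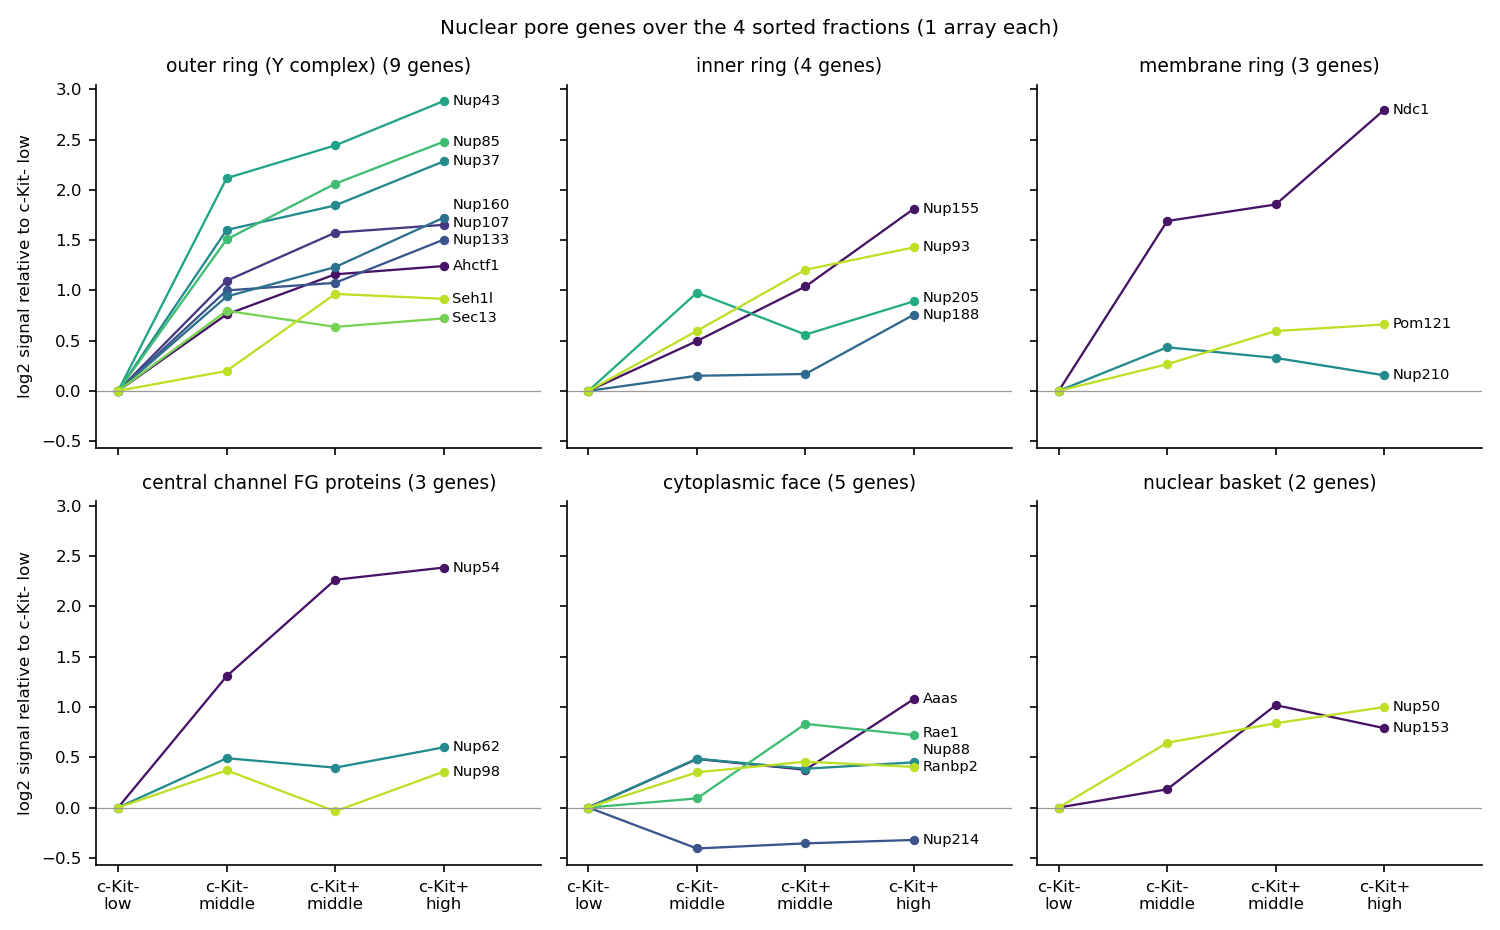
Log2 signal of each pore gene relative to its own signal at the low gate (y axis) in the 4 sorted fractions (x axis, 1 array each), in 1 panel per subcomplex of the pore. Of the 9 outer ring genes 7 end at least 1 log2 unit above their start, Ndc1 and Nup54 stand apart within their panels, and Nup214 is the gene that lies below its low gate level in all 3 other fractions.

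The promoters of the 4 members furthest apart among those with an entry are shown with that of Nup214, whose brightest probe set gave a ratio below 0 and whose second did not, so that their sequence can be set beside the values that follow. RefSeq promoter entries (GRCm38.p6) matched 23 of the 27 genes (not Nup43, Nup85, Seh1l and Nup210l). The 150 bases before the start of transcription are given from 5' to 3' on the strand of the gene, for Ndc1 at chr4:107367897-107368046 (plus strand), Nup54 at chr5:92435200-92435349 (minus strand), Nup37 at chr10:88146842-88146991 (plus strand), Nup155 at chr15:8109163-8109312 (plus strand) and Nup214 at chr2:31974300-31974449 (plus strand). Capitals mark matches, on either strand, to any of the 6 motifs searched.
Ndc1: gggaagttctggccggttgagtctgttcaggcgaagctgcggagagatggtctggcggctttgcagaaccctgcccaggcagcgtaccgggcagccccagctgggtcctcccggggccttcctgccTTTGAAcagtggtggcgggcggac
Nup54: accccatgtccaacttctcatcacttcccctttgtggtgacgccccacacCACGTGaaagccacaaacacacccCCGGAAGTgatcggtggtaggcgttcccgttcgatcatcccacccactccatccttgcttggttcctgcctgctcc
Nup37: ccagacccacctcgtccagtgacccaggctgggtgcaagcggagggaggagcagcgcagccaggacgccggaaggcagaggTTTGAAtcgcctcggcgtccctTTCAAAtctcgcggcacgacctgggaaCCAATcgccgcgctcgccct
Nup155: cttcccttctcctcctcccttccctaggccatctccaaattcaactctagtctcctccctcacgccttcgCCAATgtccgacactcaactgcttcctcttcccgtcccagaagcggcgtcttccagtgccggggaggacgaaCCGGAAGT
Nup214: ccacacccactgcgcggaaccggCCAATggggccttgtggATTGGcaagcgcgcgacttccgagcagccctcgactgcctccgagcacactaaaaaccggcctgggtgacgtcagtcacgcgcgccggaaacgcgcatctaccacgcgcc

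The motifs were searched on both strands in the 250 bases before each start, and no matches in these promoters overlapped each other. The E-box CACGTG, read by Myc and related factors, was found in 4 of 23 pore promoters (Nup188, Nup54, Nup93 and Ranbp2) and in 6.04% of all 27018 promoters, or 7.59% of those of the 14366 matched genes of the array. In the following sentences the share of all promoters is given first and that of array genes second. The ETS motif CCGGAAGT was found in 4 (Aaas, Nup155, Nup54 and Sec13) against 2.92% and 4.45%. The motif of NRF1, a regulator of growth and mitochondrial genes, was found in 3 (Nup107, Nup50 and Nup62) against 3.87% and 6.41%. The NF-Y motif CCAAT was found in 8 against 34.5% and 35.9%, and the cell cycle homology element TTTGAA in 5 (Ndc1, Nup37, Nup98, Pom121 and Sec13) against 16.3% and 12%. The E2F motif TTTNGCGC was found in 0 of 23, against 1.15% and 1.71%. No single motif was common to the genes furthest apart. Of the 10 matched genes past 2-fold between the ends of the sort, 3 held the ETS motif, 3 CCAAT, 2 the E-box, 2 TTTGAA and 1 the NRF1 motif. Among those printed, Nup54 holds the E-box 100 bases and the ETS motif 76 bases before the start, Nup155 the ETS motif 8 bases before it, and Nup37 TTTGAA at 69 and, on the other strand, at 47 bases. A match of letters is a description and not evidence of binding.

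The outer ring, or Y complex, is the scaffold unit that coats the nuclear and cytoplasmic sides of the pore, and 7 of its 9 measured genes were at least 2-fold higher at the high gate than at the low gate (median log2 ratio 1.65). Nup43, a beta-propeller protein beside Nup85, had signals of 31.8 at the low gate, 138 and 173 at the middle gates without and with c-Kit, and 235 at the high gate, a difference of 7.38-fold between the ends. Nup85, in a short arm of the Y, had 149, 425, 623 and 833 in the same order (5.58-fold). Nup37, a beta-propeller bound to Nup160, had 157, 475, 562 and 762 (4.87-fold). In these genes the low gate was well below the other fractions, and each later fraction was higher than the one before. The second probe set of Nup43 gave a log2 ratio of 2.18 beside 2.88 for the brightest, and that of Nup85 1.54 beside 2.48. The size of these differences thus varied with the probe set and the direction did not. Nup37 has a single probe set.

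Nup160 forms the other short arm of the Y, and Nup107 and Nup133 follow each other in its stem. Nup160 and Nup107 had differences of 3.30-fold and 3.14-fold. Their signals were 147, 281, 344 and 484 for Nup160 and 246, 525, 732 and 773 for Nup107. Nup133 had 328, 657, 692 and 932 (2.84-fold), and its second probe set gave a log2 ratio of 1.54, whereas 2 dimmer ones gave 0.55 and 0.59. Ahctf1 encodes ELYS, which starts pore assembly on chromatin after mitosis. It had 231, 392, 517 and 547 (2.36-fold), with log2 ratios of 0.73 to 1.24 over 4 probe sets. The remaining outer ring genes were under 2-fold. Seh1l, which also serves in the GATOR complex of amino acid sensing, had 311, 357, 606 and 586 (1.89-fold). Its 5 probe sets above the floor on all 4 arrays gave log2 ratios from 0.74 to 1.62, so it lies on either side of 2-fold by the choice of probe set. Sec13, which is also a coat protein of vesicles leaving the endoplasmic reticulum, had 339, 589, 527 and 559 (1.65-fold), and was highest in c-Kit- middle. Under the authors' scaling Sec13 had 373, 522, 529 and 577, and so was highest at the high gate.

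The inner ring connects the scaffold to the channel proteins and the membrane, and 2 of its 4 measured genes were at least 2-fold higher at the upper end (median 1.16). Nup155 had 118, 167, 243 and 416 (3.51-fold), and its second probe set gave a log2 ratio of 2.20 beside 1.81. Nup93 had 235, 355, 541 and 631 (2.69-fold). In both, each fraction was higher than the one before, and no single step held most of the difference. The large scaffold proteins were less different. Nup205 had 608, 1198, 897 and 1129 (1.86-fold) and was highest in c-Kit- middle. Under the authors' scaling it was highest at the high gate (1204.6 against 1071.5 in c-Kit- middle). Nup188 had 74.8, 83.0, 84.0 and 126 (1.69-fold), with its 3 lower fractions close together. The second probe set of Nup188 was below the floor at the low gate and gave a log2 ratio of 1.91.

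The membrane ring genes differed most among themselves. Ndc1, an integral membrane protein needed to insert pores into the envelope, had 46.8, 151, 169 and 325, a 6.95-fold difference, and its second probe set gave 2.59 beside 2.80 on the log2 scale. Pom121, which is also inserted early in pore assembly, had 880, 1058, 1330 and 1392 (1.58-fold). Nup210, the lumenal membrane glycoprotein whose level is known to vary between cell types, had 1240, 1675, 1556 and 1381 (1.11-fold), its middle fractions being the higher ones. Under the authors' scaling Nup210 had 1283, 1476, 1561 and 1486, and c-Kit- middle was no longer above the high gate. The ends of the sort therefore lay 2.80 log2 units apart for Ndc1 and 0.15 for Nup210, beside a probe set SD of 0.48.

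The FG proteins of the channel form the selective barrier. Nup54 had 115, 285, 554 and 603 (5.23-fold), with the c-Kit+ fractions above both c-Kit- fractions, and its next 2 probe sets gave log2 ratios of 1.12 and 1.59 beside 2.39. Nup62, which forms a complex with Nup54 and Nup58, had 1876, 2637, 2470 and 2841 (1.51-fold), and its 4 probe sets above the floor gave 0.60 to 1.21. Nup98, whose transcript also encodes the Y complex protein Nup96, had 463, 598, 451 and 592 (1.28-fold), without an order along the sort. On their brightest probe sets the partners Nup54 and Nup62 had log2 ratios of 2.39 and 0.60. On their second brightest ones they had 1.12 and 1.21, so the contrast between these partners depended on the probe set. Nup58, the remaining partner, is listed as Nupl1 in the annotation and is outside the rule. It had 453, 723, 994 and 1122, a log2 ratio of 1.31 at the ends.

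On the cytoplasmic face, where export complexes are taken apart, 1 of 5 genes was at least 2-fold higher (median 0.45), near the 16.1% over all genes. It was Aaas, which encodes aladin, with 133, 185, 172 and 280 (2.11-fold), just inside the threshold with a log2 ratio of 1.08. Rae1, an mRNA export factor that also acts in spindle assembly, had 295, 315, 526 and 487 (1.65-fold), but its dimmer second probe set gave a log2 ratio of -0.31 beside 0.72. Nup88 had 527, 737, 688 and 719 (1.37-fold). Ranbp2, the large filament protein that binds Ran and acts as a SUMO ligase, had 660, 841, 905 and 873 (1.32-fold), and 0.87 and 0.90 on its next 2 probe sets beside 0.40. Nup214, the docking site for exportin at the filaments, was the member with a ratio below 0, with 561, 423, 438 and 449 (1.25-fold lower). Its second probe set gave 0.14 beside -0.32, so no direction between the ends can be given for it.

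In the nuclear basket, Nup50, a mobile FG protein that assists importins, had 330, 516, 590 and 660. It was just under the 2-fold line (660.35 against 330.25, a log2 ratio of 0.9997), and its other probe sets gave 0.86 and 1.03. Nup153, the basket's anchor and an early binder of chromatin, had 919, 1042, 1862 and 1588 (1.73-fold), and 0.68 and 1.33 on its other probe sets. Both genes were lowest at the low gate, and Nup153 was highest in c-Kit+ middle. Under the authors' scaling Nup153 was lowest in c-Kit- middle (934 against 972 at the low gate). Members nearest to the 2-fold line at the ends of the sort were thus Aaas inside it, and Nup50 and Seh1l outside it.

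**Figure D2:**
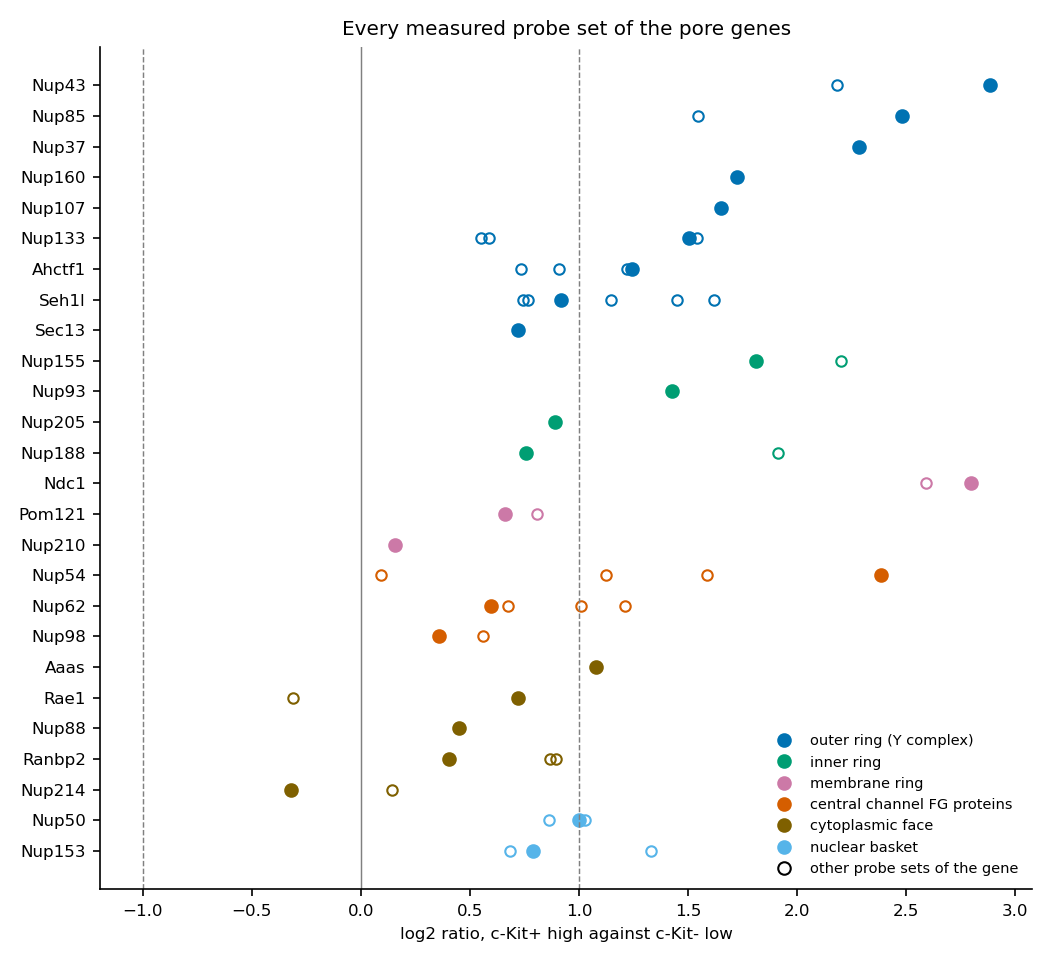
Log2 ratio of the high gate to the low gate (x axis) for every probe set of each pore gene (rows, coloured by subcomplex) that was above the floor on at least 1 of these arrays. Filled points are the brightest probe set and open points the others, dashed lines mark 2-fold, and all points but 1 of Rae1 and 1 of Nup214 lie above 0.

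Of the pore genes, 16 had a further probe set above the floor at both ends. Of these, 14 had the same sign of ratio in both, and the median was 0.96 for the brightest and 1.21 for the second. The exceptions were Rae1 and Nup214. Signals were then ordered along the sort. Of the 26 genes, 14 had a higher signal at each of the 3 steps, as did 19.3% of the 9147 genes with no value under the floor. Of the 26, 24 were lowest at the low gate (43.2% of all genes) and 16 were highest at the high gate (32.5%). Both exceptions to the lowest position were named above, Nup214 being lowest in c-Kit- middle and Nup98 in c-Kit+ middle. In 18 of 26 both c-Kit+ fractions were above both c-Kit- fractions, against 37.2% of all genes. These orders are those of the quantile-normalized signals and were not counted under the alternatives. Under the authors' scaling Nup153, Nup188, Rae1 and Seh1l were lowest in c-Kit- middle. With that scaling Nup205, Nup88, Nup98, Ranbp2 and Sec13 were highest at the high gate.

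The ratio between the ends is the sum of its 3 steps along the sort. In 9 of the 12 genes past 2-fold the first step, between the c-Kit- gates, was the largest. This was near the share over all 1616 genes past 2-fold with no value under the floor, of which 68.2% had their largest difference there. The median of this step over the 12 genes was 1.05, against 0.36 for the change of c-Kit status at the middle gates and 0.43 for the step between the c-Kit+ gates. Over the 1616 genes these medians were 0.86, 0.46 and 0.20. This first step made up 73.4% of the log2 difference of Nup43, 70.1% of that of Nup37 and 60.4% of that of Ndc1. The exceptions were Nup93, with 42.6% at the change of c-Kit status, and Nup155 and Aaas, with 42.7% and 65.2% at the last step. The largest step depended on the probe set and the scaling for some genes. On the second probe set of Ahctf1 the change of c-Kit status was largest (log2 0.74 beside 0.26 at the first step). The same held for Nup54 (1.12 beside 0.22), and for both genes under the authors' scaling. The second probe set of Nup155 had steps of 1.01, 0.92 and 0.27, the first being the largest. When c-Kit- middle was taken as the lower end, 3 of 26 pore genes were past 2-fold at the high gate, namely Nup155 (2.49-fold), Ndc1 (2.15-fold) and Nup54 (2.11-fold), and none was 2-fold lower, against 4.88% and 6.54% of all genes. Of the 26 ratios 21 were above 0 (55.4% of all genes), and 13 of 26 were at least 1.5-fold higher (16.5%) and 0 lower (13.9%). The pore median was then 0.58 against 0.07 for all genes. The count past 2-fold at the ends thus rested largely on the low gate's array, whose marker lists are given above, and their part in the result was not tested.

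**Figure D3:**
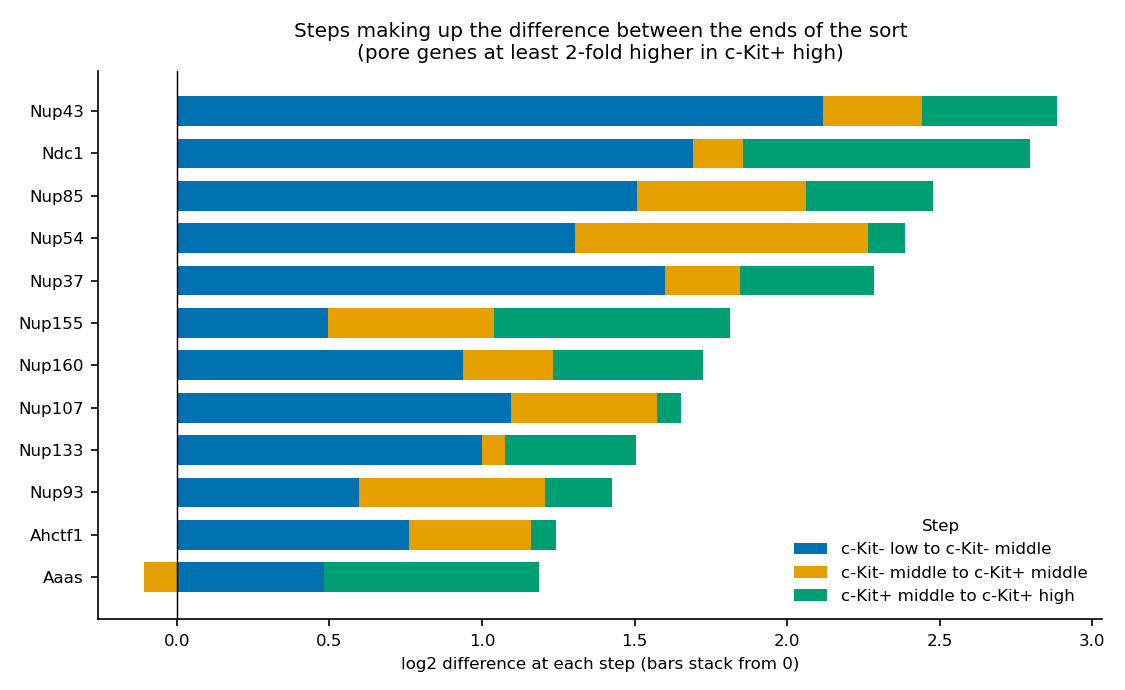
Log2 difference at each of the 3 steps along the sort (x axis, stacked from 0) for the 12 pore genes at least 2-fold higher at the high gate than at the low gate (rows). The step out of the low gate is the longest piece in 9 of the 12, and the piece to the left of 0 is the lower Aaas signal of c-Kit+ cells at the middle gate.

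Within c-Kit- cells, the middle NS-GFP gate was compared with the low gate. Of the 26 pore genes 6 were at least 2-fold higher at the middle gate and none 2-fold lower, against 6.67% and 5.48% of all 11056 genes measured, and 25 had a ratio above 0 (51.9% of all genes). At 1.5-fold, 13 were higher and 0 lower, against 16.6% and 14.8% of all genes. The 6 were Nup43 (4.34-fold), Ndc1 (3.23-fold), Nup37 (3.03-fold), Nup85 (2.84-fold), Nup54 (2.47-fold) and Nup107 (2.14-fold). Under the authors' scaling Nup54 (log2 ratio 0.94) and Nup107 (0.77) were under 2-fold, as were Nup43 (0.50) and Ndc1 (0.63) with the floor raised to the 75th percentile, which lies above their low gate signal, and Nup54 (0.43) with the mean of its probe sets. Outer ring genes made up 4 of them. Just under the line were Nup133 (1.999-fold), Nup205 (1.97-fold) and Nup160 (1.92-fold). The smallest ratios were those of Nup214 (log2 ratio -0.41), Rae1 (0.09), Nup188 (0.15), Nup153 (0.18) and Seh1l (0.20), and the last 4 of these had no settled direction, being below 0 under the authors' scaling. The pore median was 0.55 and that of all genes 0.03. Under the authors' own scaling the median of all genes moved to -0.25 and that of the pore genes to 0.29, so the distance between them was 0.52 with and 0.54 without quantile normalization. The second probe sets gave smaller steps for several of these genes, with log2 ratios of 0.22 beside 1.31 for Nup54, 0.74 beside 1.51 for Nup85 and 1.05 beside 2.12 for Nup43, whereas Ndc1 had 1.65 beside 1.69. Over the second probe sets, 3 of 18 genes were past 2-fold, and 15 of the 16 genes with both probe sets above the floor on both arrays had the same sign.

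At the middle NS-GFP gate, c-Kit+ and c-Kit- cells were compared, which differ in c-Kit status and share the name of the GFP gate. The level of Gnl3 was not equal in them, being 1.90-fold higher in c-Kit+ middle (1109 against 584). No pore gene was 2-fold apart in either direction, against 3.57% of all 11078 genes higher and 5.3% lower in c-Kit+ middle. The pore median was 0.22 and that of all genes 0.02, with 19 of 26 ratios above 0 (52% of all genes). At 1.5-fold, 5 were higher and 0 lower, against 13% and 13.1% of all genes. Nup54 was the nearest to 2-fold, with a log2 ratio of 0.96 (1.94-fold), and its next 2 probe sets gave 1.12 and 0.89, all beyond the SD of 0.37. Nup153 followed with 0.84, and its 3 probe sets lay between 0.74 and 0.84. Seh1l had 0.77, Rae1 0.74 and Nup93 0.61. The probe sets were less alike for Seh1l and Rae1. For Seh1l, 2 further probe sets gave 0.59 and 0.56 by c-Kit status and as much, 0.60 and 0.72, between the c-Kit- gates. The second probe set of Rae1 gave 0.31 by c-Kit status, within the SD, and -0.55 between the c-Kit- gates. At the other end, Nup205 had -0.42 and Nup98 -0.41, but their much dimmer second probe sets gave 0.29 and 0.21. Sec13 had -0.16, and Nup210 and Aaas -0.11 each, all within the SD and above 0 under the authors' scaling. Under that scaling the median of all genes was 0.16 and that of the pore genes 0.40, and 2 pore genes, Nup54 and Nup153, were past 2-fold, near the 5.39% of all genes.

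Within c-Kit+ cells, the high NS-GFP gate was compared with the middle gate. No pore gene was 2-fold apart, against 1.01% of all 11034 genes higher and 1.02% lower at the high gate. The pore median was 0.18 and that of all genes 0.02, with 21 of 26 ratios above 0 (53.2% of all genes). At 1.5-fold, 4 were higher and 0 lower, against 6.24% and 4.73% of all genes, beside an SD of 0.30 for 1 probe set. Ndc1 was nearest to 2-fold with a log2 ratio of 0.94, followed by Nup155 (0.77), Aaas (0.70), Nup188 (0.59) and Nup160 (0.49). The second probe set of Ndc1 gave 0.51 and that of Nup155 0.27, while that of Nup188 gave 1.13. The lowest were Nup153 (-0.23), Nup210 (-0.17), Rae1 (-0.11), Ranbp2 and Seh1l (-0.05 each), all within the SD. A further probe set above the floor at both c-Kit+ gates was present for 17 pore genes, and 12 of these had the same sign in both.

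**Figure D4:**
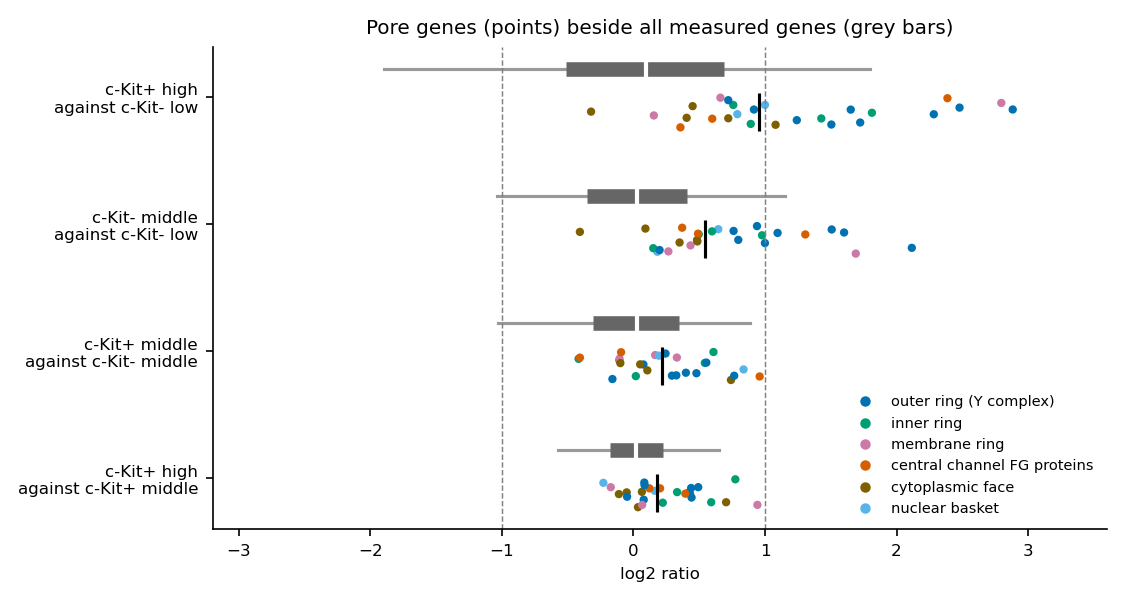
Log2 ratio (x axis) of the 26 measured pore genes (points coloured by subcomplex, black tick at their median) in the 4 comparisons (rows), beside all measured genes (thick grey bar, interquartile range; thin line, 5th to 95th percentile; white tick, median). The pore median is 0.96 and 0.55 in the upper rows and 0.22 and 0.18 in the lower ones, dashed lines mark 2-fold, and no point passes 2-fold in the lower rows.

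Genes that work with the pore were read from further lists, whose counts at the ends stand against 16.1% of all genes higher and 13.7% lower. The Ran cycle, which gives transport its direction, had 4 of 6 measured genes at least 2-fold higher at the high gate than at the low gate (median 1.56). These were Rangrf, which binds Ran (signals of 48.7, 146, 220 and 297 along the sort), Ranbp1, a Ran cofactor (345, 1135, 1360 and 1599), Rcc1, the nuclear exchange factor of Ran (65.5, 167, 192 and 214), and Rangap1, its GTPase activator (74.6, 151, 165 and 198). In all 4 the step out of the low gate was the largest. Ran itself had a log2 ratio of 0.93 and Ranbp3, a cofactor of export, -0.42. Importins had 5 of 17 higher and none lower (median 0.60), led by Ipo5 (1.73), Kpna2 (1.47) and Ipo4 (1.40), and Kpnb1, the main importin beta, had -0.35. Exportins had 2 of 7 higher (median 0.52), namely Xpot, the tRNA exporter (1.19), and Cse1l, which recycles importin alpha (1.03), and Xpo1, the main protein exporter, had 0.89. Xpot was the 1 gene of the Ran cycle, importin and exportin lists past 2-fold by c-Kit status at the middle gate (log2 ratio 1.12). With 6, 17 and 7 genes measured in these lists, this count is near the 3.57% of all genes higher in that comparison.

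Genes of mRNA export had 6 of 20 higher and none lower at the ends, where 16.1% and 13.7% of all genes were (median 0.76). Eny2, of the TREX-2 complex at the basket, had a log2 ratio of 2.14, Alyref, an export adaptor, 2.09 and Thoc3, of the THO complex, 1.32. Nxf1, the export receptor itself, had -0.53. Genes of the nuclear lamina and envelope lay on both sides, with 4 of 16 higher and 4 lower (median 0.21). Lmnb2, a B-type lamin, was higher and below the floor at the low gate, so its log2 ratio of 2.54 is a lower bound. Lmnb1 had 1.90, and Lmna, the A-type lamin gene, was at least 7.36-fold lower at the high gate, where it was below the floor. Lmna also separated the middle gates, with 98.4 in c-Kit- cells and a signal below the floor in c-Kit+ cells. The other lamina and envelope genes lower at the upper end were Lemd2 (-1.39), Tmem43 (-1.06) and Sun1 (-1.03), and the other higher ones Banf1 (1.58) and Emd (1.21). Of the 12 listed pore or pore-associated symbols outside the rule 7 were measured, and 1 was past 2-fold, namely Nupl1. The mRNA remodelling factor Gle1 had 0.34 and Nupl2 0.35.

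Genes of cell division were read beside the pore genes. Between the c-Kit- gates, all 23 measured G2 and M phase genes were at least 2-fold higher at the middle gate (median 2.40), against 6.67% of all genes. Their summed signal was 3527, 14934, 14107 and 21819 along the sort. Of 22 S phase genes 21 were at least 2-fold higher and all 22 had a ratio above 0 (median 1.54), with summed signals of 9748, 23863, 30532 and 32574. Between both middle gates the G2 and M median was -0.07 while that of the pore genes was 0.22 and that of S phase genes 0.37. Between the c-Kit+ fractions the G2 and M median was 0.70, that of the pore genes 0.18 and that of S phase genes 0.14. The part of cell division in the pore gene differences was not tested.

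**Figure D5:**
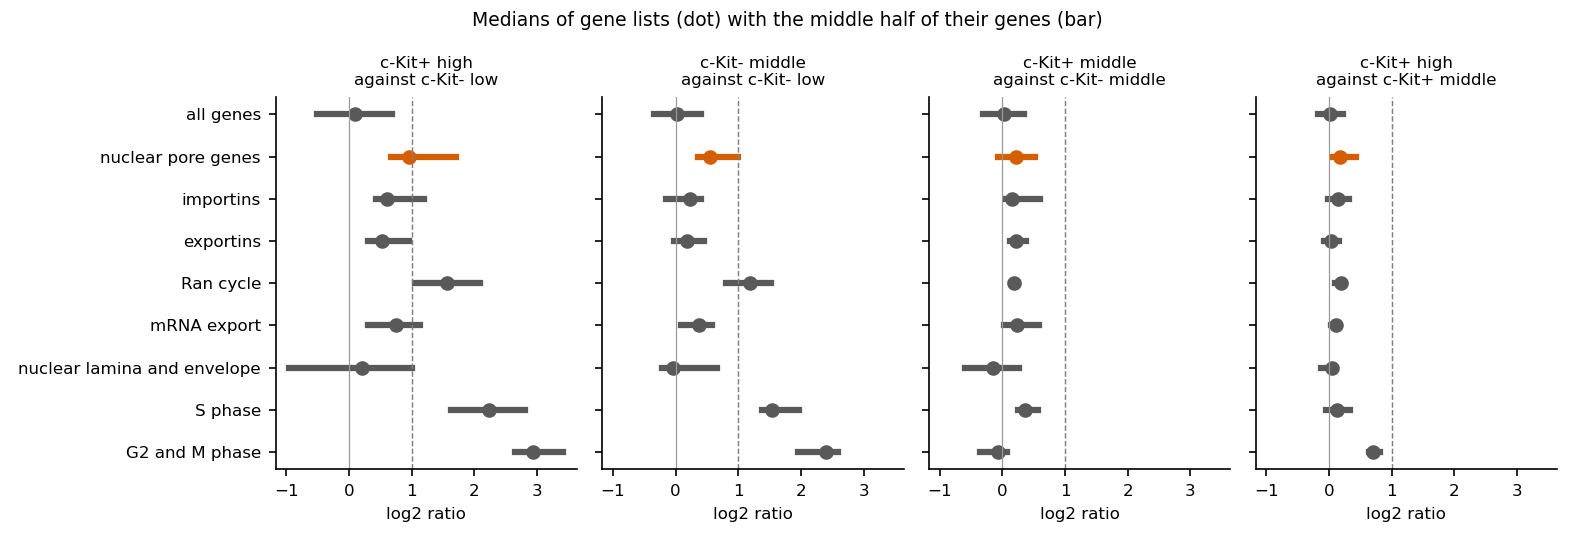
Median log2 ratio (dot) and interquartile range (bar) of the pore genes (orange), related gene lists and all genes (grey; rows) in the 4 comparisons (panels, on 1 common x axis). The pore median lies at 0.96 in the left panel, between those of the exportins (0.52) and the Ran cycle (1.56), and below those of the S phase (2.24) and G2 and M phase lists (2.93), and the dashed line marks 2-fold.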

How the data were processed

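RNA of 4 sorted fractions, 1 Affymetrix array each, was read from both deposited tables. The submitters' processing notes name GCOS 1.2, MAS5 and R 3.0.2, without their roles. One deposited table gives the intensity of 45101 probe sets on a linear scale, of the kind MAS5 writes. Another deposited table gives log2 values for 17419 of them, which differ from log2 of the intensity by 1 constant per array. How these were selected was not stated in the labels. Trimmed mean signals, leaving out 2% at each end, were 99.0 to 120 per array, so the 45037 probe sets other than controls were quantile normalized and floored at the 50th percentile (15.3). Probe sets with several genes (932) or with none listed (9160) were left out. Updating symbols through the reference annotation (34741 of 34945 probe sets matched) changed no member. A gene not above the floor on either array left that comparison.

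The members, lists, thresholds and alternatives were chosen with earlier results of these data known. Named were, per comparison, 5 members from the top and 5 from the bottom of the ratios, members within 0.1 of the 2-fold line, and the leading genes of other lists. Ratios were computed with Python 3.11.15, numpy 2.4.6 and pandas 2.3.3 and tested on simulated data. Alternatives were the authors' scaling, the second table, other floors, other probe sets, updated symbols, a 1.5-fold threshold and the c-Kit- middle gate as the lower end. With 1 array per fraction, the number of arrays limits the precision.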

Additional observations from a re-analysis of the deposited data

How the results depend on the processing

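The pore genes' median log2 ratio was above 0 in each of the 4 comparisons under every alternative run, between 0.58 and 1.22 between the ends of the sort, and no pore gene past 2-fold changed sign. Updating symbols changed no member and so could not alter these medians. Genes of the other lists were not run under the alternatives. Of 693 values of single pore genes under the alternatives, 60 moved by more than the SD of 1 probe set, most of them with another probe set of the gene. The 693 include the values with the lower floor and with no floor. These could not move, since all 26 genes lay above the main floor on every array. For the ends of the sort, the count of 12 pore genes at least 2-fold higher was 11 or 12 under other scalings, tables, floors and probe sets, became 3 when c-Kit- middle was the lower end, and 21 at a threshold of 1.5-fold (28.9% of all genes). The genes counted were not always the same. With second brightest probe sets the 11 were of 17 genes and included Nup153, Nup188, Nup62 and Seh1l, which were not among the 12. With the mean of probe sets Nup133 (log2 ratio 0.70) and Nup160 (0.86) were under 2-fold and Nup188 (1.34) was past it. Aaas had 0.90 under the authors' scaling. Between the c-Kit- gates, 6 became 4 under the authors' scaling and with the floor at the 75th percentile, 5 with the mean of probe sets, 3 with second brightest probe sets (18 genes) and 13 at 1.5-fold (16.6%). Between the middle gates, 0 higher became 2 under the authors' scaling (5.39% of all genes), 1 with second brightest probe sets (4.6%) and 5 at 1.5-fold (13%), and 0 lower became 1 with the floor at the 25th percentile or with no floor. Between the c-Kit+ gates, 0 higher became 1 with the floor at the 25th percentile (7.75%), with no floor (12.6%) and with second brightest probe sets (1.31%), and 4 at 1.5-fold (6.24%). With no floor or the lower one Nup210l enters, and second brightest probe sets leave fewer genes. The authors' scaling changed the split of all genes past 2-fold: 43.2% rather than 54.0% were higher at the ends, 24.2% rather than 54.9% between the c-Kit- gates, 56.6% rather than 40.3% between the middle gates and 38.9% rather than 49.6% between the c-Kit+ gates. In the second deposited table the last share was 20.9%. No paired analysis was possible because each fraction has 1 array. Leaving out replicates was not run for the same reason.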
